A study of Homo sapiens with 20 samples.

Results

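The comparison described here is the second 12 h of p53 induction at the higher dose. The 4 arrays of cells given 5 ng doxycycline and collected at 24 h were set against the 4 given 5 ng and collected at 12 h. These are 8 of the 20 arrays in the series, and they were chosen by their titles alone. All cells were B5/589, an immortalized human mammary epithelial line that carried an inducible p53 transgene, which doxycycline switches on. The remaining 12 arrays were 4 of uninduced cells at 24 h (0 ng), 4 of cells given 3 ng for 12 h and 4 of cells given 3 ng for 24 h. The doses are given in ng without a volume, and neither the transgene's promoter nor whether the line is 1 clone is stated in the sources used here. The study asked how the amount of p53 relates to growth arrest and cell death, and this time step asks which transcripts changed late at the higher dose. Uninduced cells at 12 h were not analysed here, so changes with time in culture and changes under p53 cannot be told apart in this comparison. The labels do not say whether replicate arrays had separate cultures behind them. Therefore p-values measure only the spread between these arrays, which may be technical. The level of the p53 transcript itself was not analysed here.

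p53 is a transcription factor that raises genes of cell cycle arrest, such as CDKN1A (the kinase inhibitor p21), and genes of apoptosis, such as BAX and BBC3. p21 holds the retinoblastoma family in its active form, and a repressor complex built on those proteins (DREAM) then binds the promoters of cell cycle genes, through E2F sites at genes of DNA synthesis and through the cell cycle genes homology region (CHR) at genes of mitosis. In epithelial cells p53 and its relative p63 are also known for links to differentiation of the epidermal type.

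Expression was measured on Affymetrix human gene arrays, deposited as log2 signal for 33297 transcript clusters. A total of 18417 genes were tested, each by the brightest of its clusters that the platform table pairs with exactly 1 symbol. The median log2 signal of an array lay between 4.70 and 5.27 at 12 h and between 4.54 and 4.99 at 24 h, so the ranges overlapped and the 24 h arrays were on average dimmer (4.80 ± 0.20 against 4.96 ± 0.29, SD, n = 4 each). Because of that offset each change is given on the deposited scale and, where it matters, after quantile normalization, which forces all arrays to 1 distribution. Checked against the labelled cell type, the mean log2 signal of 15 epithelial markers was 10.15 at 12 h (arrays 10.05 to 10.21) and 10.28 at 24 h (10.21 to 10.33), against 3.83 and 3.62 for 9 immune markers, 3.63 and 3.42 for 6 endothelial markers and 3.14 and 2.98 for 6 adipocyte markers. In such bulk samples, fewer cells of a kind and less RNA per cell cannot be told apart.

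Between 12 h and 24 h at 5 ng the transcripts of cell division fell together and far, and 78 transcripts rose modestly. Most p53 target genes measured did not pass the test as deposited, which was also so for most of all genes. On the deposited scale 731 genes were called (3.97% of those tested), of which 653 fell (3.55%) and 78 rose (0.424%) at a limma Benjamini-Hochberg adjusted p below 0.05. Falls were also the larger changes: 383 genes fell by at least 2-fold and 8 rose by at least 2-fold. After quantile normalization 1400 genes fell (7.6%) and 1986 rose (10.8%), so the share of rises among called genes was 10.7% as deposited and 58.7% on the quantile scale, while the median change of all genes moved from -0.08 to 0.07. After quantile normalization 329 falls and 16 rises were of at least 2-fold, and it kept the call of all 78 rises and of 650 of the 653 falls. The number of rises was sensitive to single arrays: it was 45, 32 and 46 without 12 h replicates 1, 2 and 3, and 43, 47, 39 and 36 without 24 h replicates 1, 2, 3 and 4.

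The deepest falls were in genes of mitotic entry, the spindle and chromosome segregation. KIF14, a kinesin motor of cytokinesis, measured 7.40, 8.41, 7.98 and 7.84 at 12 h and 3.60, 4.34, 3.96 and 4.25 at 24 h. This was the largest fall of all genes tested, 14.6-fold (log2 change -3.87 ± 0.26, SE, adjusted p = 4e-09). CDK1, the kinase that starts mitosis, went from 7.73, 8.59, 8.23 and 8.35 to 4.75, 4.83, 4.52 and 5.16, a 10.6-fold fall (log2 change -3.41 ± 0.24, SE, adjusted p = 7.2e-09). Its partner cyclin B1 (CCNB1) measured 10.17, 10.96, 10.53 and 10.45 at 12 h and 7.39, 7.90, 7.43 and 7.41 at 24 h, a fall of 7.97-fold (SE 0.20 on the log2 scale, adjusted p = 4e-09). The arrays of the time points did not overlap for any of the 3 genes.

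Of 32 measured genes on a list of mitotic entry and exit, 31 fell and none rose, against 3.55% of all genes that fell. The list's median log2 change was -2.87, beside -0.08 for all genes tested, and it was -2.71 after quantile normalization, when all 32 were called. Its largest falls were in TTK, a spindle checkpoint kinase (log2 change -3.70), KIF11, the motor that separates the spindle poles (12.3-fold), CDK1, TOP2A, which untangles chromosomes (10.2-fold), and cyclin A2 (CCNA2, 10.1-fold). The proliferation marker MKI67 fell 8.91-fold, from 8.14, 8.97, 8.34 and 8.24 to 5.05, 5.62, 5.19 and 5.21. The member that did not pass was PTTG1, the separase inhibitor securin, at -0.37 (adjusted p = 0.29), and KIF20A (-1.62) and ESPL1 (-1.62) were the smallest of the called falls.

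Genes of the kinetochore and centromere, the structures by which chromosomes hold on to the spindle, fell nearly as far. Of 25 measured, 24 fell and none rose, with a median of -2.55 (-2.37 and 25 falls after quantile normalization). NUF2, an NDC80 complex subunit, fell 12.2-fold, CENPF fell 12.1-fold, the cohesin protector SGO1 fell 10.9-fold, the motor CENPE 10.6-fold and SPC25 10.5-fold. The remaining member, MIS12, stood at -0.47 and did not pass (adjusted p = 0.21). Outside these lists the other large falls included ASPM (13.2-fold), a spindle pole protein, DEPDC1 (12.7-fold), KIF18A (log2 change -3.46), a kinesin that limits chromosome movement, CKAP2L (10.9-fold) and ARHGAP11A (10.8-fold). For each of these genes all 4 arrays at 24 h lay below all 4 at 12 h, which held for 8.26% of all genes. The reverse order, all 24 h arrays above all 12 h arrays, held for 3.15% of all genes and for 76 of the 78 rises.

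The promoters of 4 genes of mitosis are shown because they hold short letter strings that many windows of the mitotic list held. CDK1, CDC20 and PLK1 are on that list and KIF14 is not. The stretches run from 130 bases before to 30 after the annotated start, 5′ to 3′ along the gene, from RefSeq on build GRCh38.p14: CDK1, chr10:60778348-60778507, plus strand; KIF14, chr1:200620722-200620881, minus strand; CDC20, chr1:43358851-43359010, plus strand; PLK1, chr16:23678759-23678918, plus strand. For CDK1, which has 2 annotated starts, the one whose window held more matches is shown. Capitals mark TTTGAA, the core letters of the CHR, and CCAAT, the letters of the NF-Y site, on either strand (TTCAAA and ATTGG on the opposite one). CDC20, the activator of the anaphase promoting complex, fell by 2.50 on the log2 scale (adjusted p = 1.6e-07), and the mitotic kinase PLK1 by 3.31 (adjusted p = 3.2e-09).
CDK1: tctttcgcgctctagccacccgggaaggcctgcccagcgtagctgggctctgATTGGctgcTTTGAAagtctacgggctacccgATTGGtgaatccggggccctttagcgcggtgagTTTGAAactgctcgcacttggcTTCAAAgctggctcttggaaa
KIF14: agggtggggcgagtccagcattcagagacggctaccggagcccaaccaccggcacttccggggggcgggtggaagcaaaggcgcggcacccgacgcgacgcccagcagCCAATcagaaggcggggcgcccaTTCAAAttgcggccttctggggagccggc
CDC20: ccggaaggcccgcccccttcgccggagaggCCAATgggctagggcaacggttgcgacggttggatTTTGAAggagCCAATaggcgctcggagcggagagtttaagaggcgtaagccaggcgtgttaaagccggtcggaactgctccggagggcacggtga
PLK1: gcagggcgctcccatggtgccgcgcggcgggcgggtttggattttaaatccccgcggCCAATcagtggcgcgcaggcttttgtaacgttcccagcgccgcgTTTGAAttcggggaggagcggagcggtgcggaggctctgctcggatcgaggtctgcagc

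Counted over RefSeq windows of 300 bases (250 before to 50 after each start, both strands), TTTGAA stood in 60.6% of 33 windows of the mitotic list and in 41.7% of 24 windows of the kinetochore list. It stood in 124 of 400 windows of the genes that fell at least 2-fold, in 12.3% of the windows of all measured genes and in 15.2% of all windows in the table. CCAAT stood in 78.8% of the mitotic windows and 70.8% of the kinetochore windows, against 34.6% of the windows of measured genes. Among 97 windows of 63 of the 78 rises the shares were 8.25% for TTTGAA and 37.1% for CCAAT. Windows were found for 14239 of the 18417 genes, and a match is a description of letters, not a binding site.

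Genes of DNA replication fell as a group by less than the mitotic genes. Of 37 measured, 33 fell and none rose, with a median log2 change of -1.50 (-1.33 and 34 falls after quantile normalization). ORC6, an origin recognition subunit, measured 6.71, 7.86, 7.46 and 7.33 at 12 h and 4.35, 5.06, 4.43 and 5.09 at 24 h and fell 6.09-fold (-2.61 ± 0.26, adjusted p = 4.2e-07). Claspin (CLSPN), which relays the replication checkpoint, fell 5.74-fold, from 6.44, 7.44, 6.97 and 6.92 to 4.34, 4.46, 4.01 and 4.88. DTL, a ubiquitin ligase adaptor that clears the licensing factor CDT1, fell 5.03-fold, RRM2, the small subunit of ribonucleotide reductase, fell 4.84-fold, and the loading factor CDC6 fell 4.81-fold. Cyclin E2 (CCNE2), which drives entry into S phase, fell 3.09-fold (-1.63 ± 0.28, adjusted p = 0.00072). The groups did not overlap for any of these genes.

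The 4 replication genes that did not pass on the deposited scale were PCNA (-0.59), E2F1 (-0.54), CCNE1 (-0.26) and E2F2 (-0.10). PCNA lay just above the threshold (adjusted p = 0.051) and passed after quantile normalization (-0.52, adjusted p = 1.1e-05). CCNE1 and E2F2 were far from it as deposited (adjusted p = 0.68 and 0.97). E2F1, a transcription factor of S phase genes, had 12 h arrays up to 6.05 and 24 h arrays from 4.46 to 5.85. The ranges overlapped, and the adjusted p was 0.34.

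The promoters of CDC6 and CLSPN are shown for a different pair of strings, TTTGGCGC and TTTCCCGC, which are forms of the E2F site, marked in capitals with CCAAT (opposite-strand forms included, GCGGGAAA for TTTCCCGC). Both are from RefSeq on GRCh38.p14 over the same 160 bases: CDC6, chr17:40287749-40287908, plus strand; CLSPN, chr1:35769949-35770108, minus strand. In windows of 300 bases TTTCCCGC stood in 26.3% of 38 replication windows and TTTGGCGC in 21.1%, against 2.05% and 0.801% of the windows of all measured genes. Neither string stood in a window of the mitotic list, and TTTGAA stood in 2.63% of the replication windows. CCAAT stood in 65.8% of the replication windows, against 34.6% of the windows of all measured genes.
CDC6: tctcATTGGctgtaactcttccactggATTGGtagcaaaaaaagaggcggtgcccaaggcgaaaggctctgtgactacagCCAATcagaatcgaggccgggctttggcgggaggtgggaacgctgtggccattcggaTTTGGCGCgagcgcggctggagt
CLSPN: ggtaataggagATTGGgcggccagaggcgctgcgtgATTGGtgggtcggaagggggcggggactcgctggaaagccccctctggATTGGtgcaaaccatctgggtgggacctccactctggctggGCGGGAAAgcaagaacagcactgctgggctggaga

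Homologous recombination and Fanconi anemia genes, which mend breaks and crosslinks met during replication, fell in 14 of 18 cases (median -1.67, and -1.47 with 17 falls after quantile normalization). XRCC2, a recombination factor, measured 6.32, 7.04, 6.47 and 6.63 at 12 h and 3.73, 3.56, 3.50 and 4.0 at 24 h, a 7.56-fold fall (-2.92 ± 0.24, adjusted p = 3.8e-08), and the groups did not overlap. The helicase BRIP1 fell 6.34-fold, the nuclease EXO1 6.05-fold and FANCI 5.73-fold. FANCL (-0.82), FANCC (-0.78), XRCC3 (-0.56) and PALB2 (-0.34) did not pass.

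Replication-dependent histone genes, which supply the histones packed onto new DNA, fell in 29 of 43 cases, with a median of -1.47 and no rise. H2BC14 measured 9.25, 10.07, 9.33 and 9.10 at 12 h and 6.36, 6.70, 5.79 and 6.14 at 24 h, a 9.13-fold fall (-3.19 ± 0.24, adjusted p = 1.1e-08). H3C2 went from 8.43, 9.49, 8.75 and 8.54 to 5.49, 5.75, 5.25 and 5.86, a 9.29-fold fall (-3.21 ± 0.23, adjusted p = 7.2e-09). The groups stood more than 2 log2 units apart for both. H3C7 fell 6.17-fold, H2AC14 5.85-fold and H3C1 5.56-fold, though H2AC14 was dim throughout, at 1.40 to 2.17 at 12 h. The highest members, H2BC11 (0.15) and H2BC5 (0.07), did not pass. Histone genes are near-identical copies, and how far their probes separate them was not tested.

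The promoter of H3C2, chr6:26032070-26032229, minus strand (RefSeq on GRCh38.p14, the same 160 bases) is shown because histone windows held a further combination. Capitals mark CCAAT and TTTGAA, and also TATAAA, the letters of a TATA box. CCAAT stood in 89.7% and TATAAA in 69.2% of 39 histone windows, against 9.06% for TATAAA in the windows of all measured genes.
H3C2: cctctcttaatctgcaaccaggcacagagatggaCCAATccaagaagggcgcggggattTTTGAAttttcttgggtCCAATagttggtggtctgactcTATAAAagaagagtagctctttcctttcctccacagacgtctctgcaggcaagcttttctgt

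**Figure D1:**
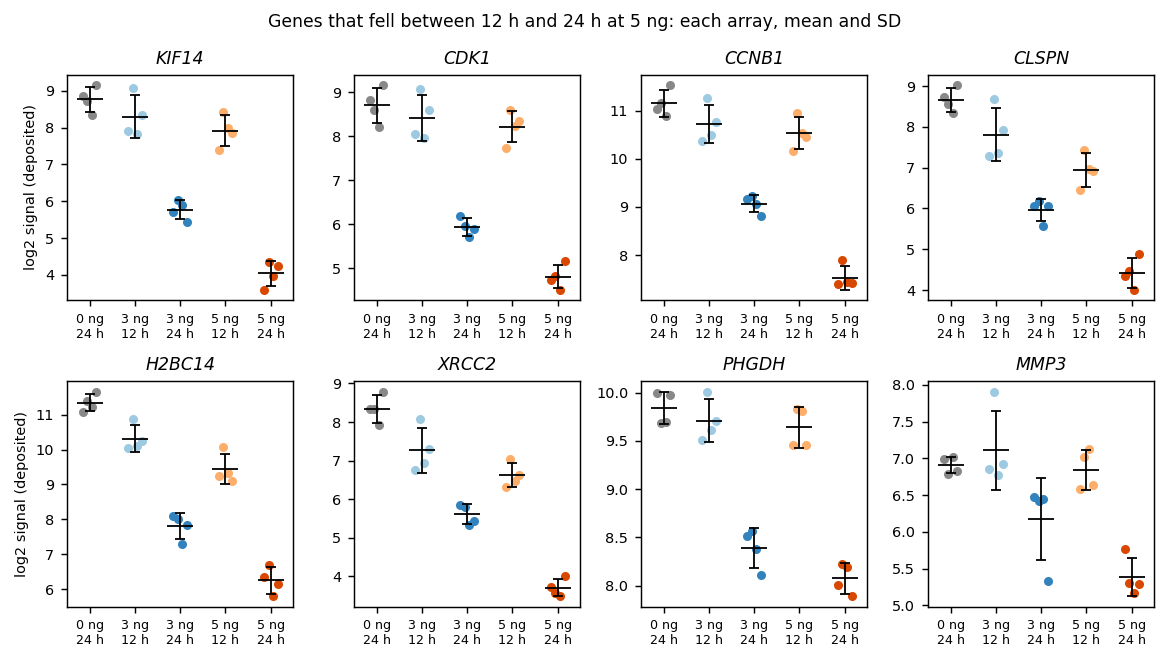
Deposited log2 signal (y axis) of 8 genes that fell between 12 h and 24 h at 5 ng, in each of the 5 groups of 4 arrays (x axis). Points are arrays, dashes are means and bars are SD. The 24 h arrays at 5 ng lie below every 12 h array at 5 ng in each panel, by 14.6-fold on average for KIF14 and 2.76-fold for MMP3.

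For the cell cycle lists, 5 ng at 12 h against uninduced cells can be set beside the later step. The uninduced cells were collected at 24 h. This first comparison therefore also holds a difference in time in culture and is not a step in time. It shares the 12 h arrays with the later step, so the values are given with no test between them. The mitotic list had a median of -0.90 in the first comparison and -2.87 in the later step, and the kinetochore list -0.85 and -2.55. For DNA replication the medians were -1.27 and -1.50, for recombination and Fanconi genes -1.21 and -1.67, and for histones -1.35 and -1.47. CDK1 had values of -0.47 and -3.41, whereas CCNE2 had -2.48 and -1.63.

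**Figure D2:**
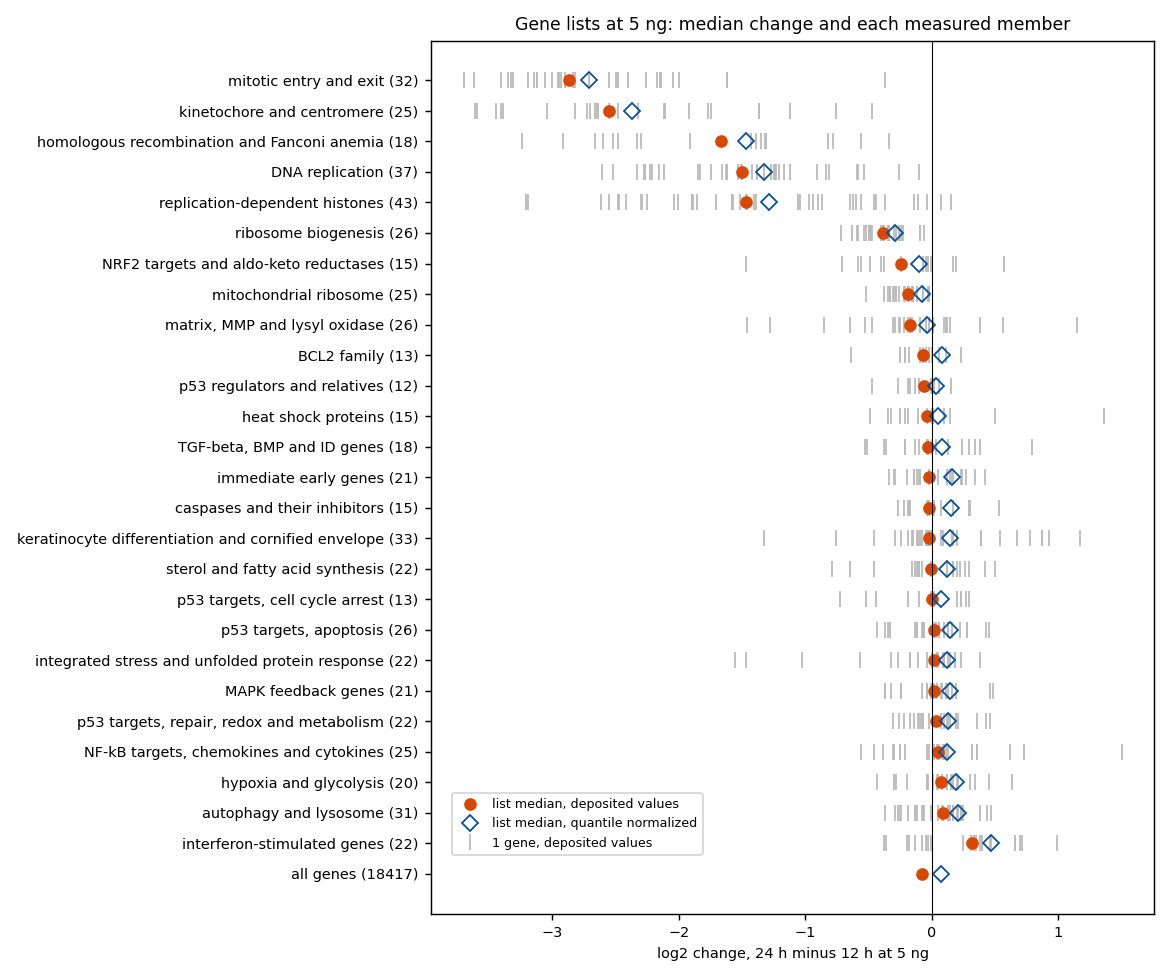
Log2 change from 12 h to 24 h at 5 ng (x axis) for each gene list (y axis, with the number of measured genes). Grey ticks are single genes on the deposited scale, filled circles are list medians as deposited and open diamonds after quantile normalization. The 5 cell cycle lists have medians from -2.87 to -1.47, and the p53 target lists lie at 0.00 to 0.03.

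The 78 rises were smaller and more mixed. LINC00324, a long non-coding RNA, measured 4.52, 4.36, 4.66 and 4.41 at 12 h and 6.04, 6.18, 6.25 and 6.21 at 24 h. It was the largest rise, 3.21-fold (1.68 ± 0.21, adjusted p = 1.4e-05), and the groups did not overlap. CCL3, a chemokine that draws macrophages, measured 7.53, 7.51, 7.95 and 7.99 at 12 h and 9.13, 9.21, 9.33 and 9.29 at 24 h, a 2.82-fold rise (1.50 ± 0.18, adjusted p = 6.1e-06) with clearly separate groups. CRYAB, the small heat shock protein alpha-B-crystallin, measured 8.80, 8.66, 9.07 and 9.31 and then 10.14, 10.22, 10.27 and 10.65, a 2.57-fold rise (1.36 ± 0.26, adjusted p = 0.0018) on top of a 12 h level already 5.19 log2 units above uninduced cells. It was the single called gene among 15 heat shock genes as deposited, beside 0.424% of all genes that rose. After quantile normalization 2 of them rose and 4 fell, beside 10.8% and 7.6% of all genes.

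LOX, a lysyl oxidase that crosslinks collagen, rose without having stood above uninduced cells at 12 h. It measured 4.66, 5.12, 5.13 and 5.04 at 12 h and 5.77, 6.08, 6.10 and 6.58 at 24 h, 2.21-fold higher (1.15 ± 0.20, adjusted p = 0.00095), and its 12 h level had been 0.31 log2 units below that of uninduced cells. The groups did not overlap. Other named rises were SPINK6, a skin protease inhibitor (2.64-fold), KRT34, a hair-type keratin (2.31-fold), HSD17B3, a steroid dehydrogenase (2.02-fold), TM7SF2, a sterol reductase (1.97-fold), TCP11L2 (1.88-fold), PPP2R2B, a phosphatase 2A subunit (1.86-fold), CALCOCO1 (1.85-fold) and WFDC5 (1.85-fold). Without single arrays the adjusted p of HSD17B3 reached 0.14 and that of TCP11L2 0.15. The call of HSD17B3 was lost without 5 of the 8 arrays (12 h replicates 1 and 2, and 24 h replicates 1, 3 and 4) and that of TCP11L2 without 7 (all but 24 h replicate 2).

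The family with most rises on the lists was the late cornified envelope (LCE) family, small proteins that harden the outer layer of skin. Of 33 measured genes of keratinocyte differentiation, 5 rose and 1 fell, beside 0.424% and 3.55% of all genes, and all 5 rises were LCE genes. The list also held LCE1A, LCE1D, LCE1E and LCE2A, none of which was among the called genes. LCE1F measured 8.91, 8.73, 8.71 and 8.97 at 12 h and 10.00, 10.01, 10.03 and 9.98 at 24 h, a 2.26-fold rise (1.17 ± 0.14, adjusted p = 8.8e-06) with tight and separate groups. LCE1C was 1.90-fold higher, LCE1B 1.83-fold, LCE3D 1.82-fold and LCE3E, 1 more called member, 0.78 higher on the log2 scale. LCE1C measured 10.79, 10.62, 10.78 and 10.79 and then 11.67, 11.67, 11.74 and 11.60. Its adjusted p of 0.03 rose to between 0.054 and 0.096 without any 1 of 7 arrays (all but 12 h replicate 1), and without 12 h replicate 2 or 24 h replicate 3 the list had 3 rises. Without 12 h replicate 1 it had 2 falls.

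The LCE1 and LCE3 genes had different earlier values. LCE1C, LCE1B and LCE1F stood 4.86, 3.78 and 2.58 log2 units above uninduced cells at 12 h, whereas LCE3D and LCE3E stood 0.40 and 0.16 above. SPRR2A, another cornified envelope precursor, moved the other way, from 6.63, 7.10, 7.27 and 6.91 at 12 h to 5.92, 5.39, 5.43 and 5.86 at 24 h, a 2.51-fold fall (adjusted p = 0.0011) with no overlap. The rest of the list, such as involucrin (IVL, -0.02), KRT10 (-0.04) and filaggrin (FLG, 0.17), did not pass, and the list's median was -0.02. LCE genes are also near-identical copies, and how far their probes separate them was not tested.

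The promoter of KRT34, a called rise that is on no list, is shown for TATAAA, in capitals. Of the strings searched this was the one found most often in the keratinocyte list, in 15 of 30 windows, and it stood in 11.3% of the windows of all rises, against 9.06% for measured genes. The stretch is KRT34, chr17:41382277-41382436, minus strand, RefSeq on GRCh38.p14, over the same 160 bases. KRT34 itself measured 6.73, 6.80, 6.95 and 7.69 at 12 h and 8.02, 8.23, 8.05 and 8.70 at 24 h.
KRT34: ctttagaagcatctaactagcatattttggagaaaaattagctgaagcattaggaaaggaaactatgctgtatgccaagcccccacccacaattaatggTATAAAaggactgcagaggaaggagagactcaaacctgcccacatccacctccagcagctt

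**Figure D3:**
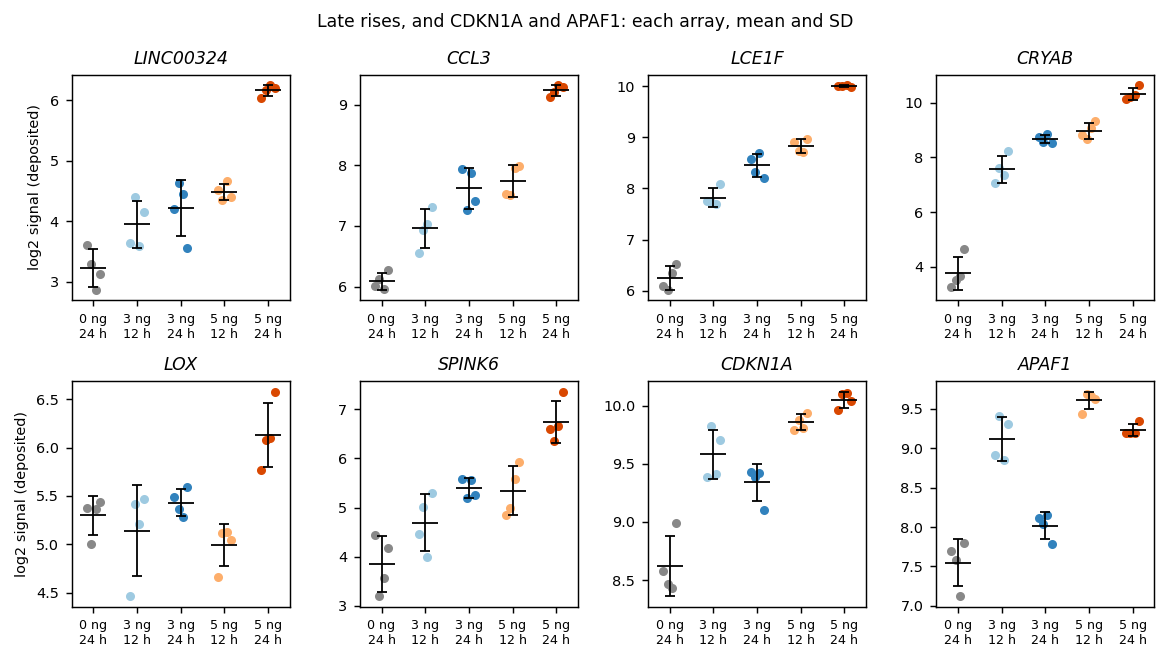
Deposited log2 signal (y axis) in each group of 4 arrays (x axis) for 6 genes that rose late at 5 ng, and for CDKN1A and APAF1, which did not pass as deposited. Points are arrays, dashes are means and bars are SD. LCE1F rose from between 8.71 and 8.97 to between 9.98 and 10.03, whereas the CDKN1A means differ by 0.20.

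Most p53 target genes did not pass the test in this step as deposited. That was also so for all genes, of which 0.424% rose and 3.55% fell. Of 13 measured arrest targets 1 fell and none rose, and of 26 apoptosis targets and 22 targets of repair, redox control and metabolism none was called on the deposited scale (medians 0.00, 0.02 and 0.03). In the first comparison (5 ng at 12 h against uninduced cells), 7, 13 and 15 of these genes were called higher. This stands beside 3.44% of all genes, and the list medians were 0.49, 0.46 and 0.78. CDKN1A measured 9.79, 9.88, 9.81 and 9.94 at 12 h and 9.96, 10.10, 10.11 and 10.04 at 24 h. The 24 h arrays all lay above the 12 h arrays, but by 0.20 ± 0.14 (adjusted p = 0.72), beside 1.24 in the first comparison. The difference reached the threshold after quantile normalization (0.25, adjusted p = 0.01).

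Several other targets passed on the quantile scale alone: TP53I3, a redox enzyme (0.33, adjusted p = 0.0057), SFN, the 14-3-3 sigma protein that holds cells before mitosis (0.31, adjusted p = 0.0063), and TP53INP1 (0.56, adjusted p = 0.00046). On that scale 4 arrest, 5 apoptosis and 9 repair and metabolism targets were called higher, read against 10.8% of all genes, and 2, 2 and 0 were called lower. APAF1, the core of the caspase-activating apoptosome, was lower on that scale (-0.26, adjusted p = 0.018). Its arrays measured 9.44, 9.69, 9.67 and 9.62 at 12 h and 9.19, 9.20, 9.19 and 9.35 at 24 h as deposited, without overlap, at -0.37 ± 0.16 (adjusted p = 0.31).

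Other targets named for their known roles had small values as deposited. MDM2, which degrades p53, had 0.02 ± 0.15, and the pore former BAX had -0.06 ± 0.15. The apoptosis genes BBC3 and PMAIP1 had -0.06 ± 0.17 and -0.12 ± 0.17. The death receptors FAS and TNFRSF10B had 0.02 ± 0.16 and -0.12 ± 0.15. CASP6 had 0.03 ± 0.20, GADD45A -0.01 ± 0.16 and the secreted factor GDF15 0.13 ± 0.15. The sign of each of these small changes but that of GDF15 turned with the scaling or with a single array left out, so they have no settled direction. The stress regulator SESN1 measured -0.22 ± 0.18. E2F7, a repressor of E2F genes that p53 raises in other settings, was the arrest target that fell, 1.66-fold (-0.73 ± 0.16, adjusted p = 0.0088). Without 12 h replicate 2 its adjusted p was 0.05 after rounding and the call was lost.

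The strongly induced genes AKR1B10, an aldo-keto reductase, and PALMD, which stood 4.57 and 4.14 log2 units above uninduced cells at 12 h, had later values of -0.03 ± 0.23 and 0.36 ± 0.22, which did not pass. The sign of AKR1B10 turned positive after quantile normalization (0.11). ID2, an inhibitor of differentiation factors, measured 4.35, 3.91, 4.21 and 4.49 at 12 h and 4.97, 4.91, 4.93 and 5.30 at 24 h. The groups did not overlap, and it passed after quantile normalization (0.94, adjusted p = 0.0021) but not as deposited (0.79 ± 0.24, adjusted p = 0.075). BCL2 family genes (13 measured) and caspases with their inhibitors (15) gave no call as deposited, and BCL2 family genes gave 1 fall without 12 h replicate 1. After quantile normalization 1 BCL2 family gene rose and 1 fell, and 3 caspase genes rose, beside 10.8% and 7.6% of all genes.

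The calls on the integrated stress response list were 3 falls of amino acid genes among 22 measured, beside 3.55% of all genes that fell. PHGDH, the first enzyme of serine synthesis, measured 9.46, 9.83, 9.81 and 9.46 at 12 h and 8.01, 8.23, 8.19 and 7.89 at 24 h, a 2.95-fold fall (-1.56 ± 0.15, adjusted p = 3.2e-07). The cystine carrier SLC7A11 fell 2.77-fold, from 7.91, 7.66, 8.03 and 7.39 to 6.38, 6.43, 6.21 and 6.09 (adjusted p = 5.6e-05). Asparagine synthetase (ASNS) fell 2.05-fold (-1.03 ± 0.19, adjusted p = 0.0016). None of the 3 overlapped between time points. The other 19 genes did not pass as deposited, and the list's median was 0.02. After quantile normalization 2 rose and 4 fell, beside 10.8% and 7.6% of all genes.

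Matrix genes moved both ways. The stromelysin MMP3 measured 6.59, 7.02, 7.13 and 6.64 at 12 h and 5.77, 5.30, 5.17 and 5.29 at 24 h, a 2.76-fold fall (-1.46 ± 0.25, adjusted p = 0.00073). Tenascin C (TNC), a matrix glycoprotein, fell 2.42-fold (-1.28 ± 0.18, adjusted p = 3.9e-05), and both genes had separate groups. TIMP1, an inhibitor of matrix proteases, rose 1.48-fold beside LOX, and these were the 4 called genes of 26 on the list (2 rises and 2 falls, beside 0.424% and 3.55% of all genes, with 4 falls without 12 h replicate 1). After quantile normalization 4 rose and 4 fell, beside 10.8% and 7.6% of all genes. TIMP1 lost its call without 12 h replicates 2, 3 or 4 or 24 h replicates 1, 2 or 3, where its adjusted p lay between 0.06 and 0.11. Thrombospondin 1 (THBS1), a matrix protein under TGF-beta control, fell 1.44-fold, the 1 call among 18 TGF-beta, BMP and ID genes. THBS1 lost that call without 12 h replicates 2, 3 or 4 or 24 h replicates 1, 3 or 4 (adjusted p 0.07 to 0.19). After quantile normalization 4 of the 18 rose and 2 fell, beside the same shares of all genes, 10.8% and 7.6%.

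Cytokine genes were mostly below the threshold. Besides CCL3, IL6 rose 1.53-fold (0.62 ± 0.15, adjusted p = 0.023) and IL24 fell 1.47-fold (-0.56 ± 0.16, adjusted p = 0.048), the 3 calls among 25 genes of NF-kB targets, chemokines and cytokines. These 2 rises and 1 fall stand beside 0.424% and 3.55% of all genes, and after quantile normalization 6 rose and 4 fell, beside 10.8% and 7.6%. Both calls were fragile: IL6 lost its call without any 1 of 7 arrays (all but 12 h replicate 4, adjusted p 0.051 to 0.093), and IL24 without any 1 of the same 7 (0.072 to 0.18). The 22 interferon-stimulated genes had the highest list median, 0.32, with no gene called as deposited and 1 after quantile normalization. The spread was wide for IFIT1, which responds to interferon (0.99 ± 0.56, adjusted p = 0.56).

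Ribosome biogenesis genes, which build ribosomes in the nucleolus, all had values below 0 as deposited, from -0.72 to -0.06, beside a median of -0.08 for all genes. Of 26 measured, 3 fell as deposited: UTP15 (1.65-fold), UTP20 (1.54-fold) and FBL, the methyltransferase fibrillarin (1.44-fold). After quantile normalization 19 fell, against 7.6% of all genes, and the list's median went from -0.39 to -0.29. The 3 deposited calls were near the threshold: UTP15 lost its call without 12 h replicates 2, 3 or 4 or 24 h replicates 1, 2 or 3 (adjusted p 0.11 to 0.15), and UTP20 and FBL without any array but 12 h replicate 1 (0.074 to 0.13 and 0.072 to 0.2). The list had 1 fall without 24 h replicate 4 and 0 without the other 6 of those 7 arrays. None of 25 mitochondrial ribosome genes was called as deposited, and 3 fell after quantile normalization, beside 7.6% of all genes.

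Sterol and fatty acid synthesis gave 2 falls of 22, EBP, a sterol isomerase (1.73-fold, adjusted p = 0.004), and FADS2, a fatty acid desaturase (1.57-fold, adjusted p = 0.032). FADS2 lost its call without any array but 12 h replicate 1 (adjusted p 0.072 to 0.11). The 2 falls stand beside 3.55% of all genes, and after quantile normalization 10 genes of the list rose and 3 fell, beside 10.8% and 7.6% of all genes. Among 31 autophagy and lysosome genes the cargo receptor SQSTM1 rose as deposited (1.39-fold, adjusted p = 0.029), a call lost without any 1 of the 8 arrays (0.053 to 0.12), and 14 rose after quantile normalization. BNIP3L, a mitophagy receptor, rose 1.54-fold (adjusted p = 0.009), the 1 call among 20 hypoxia and glycolysis genes, of which 7 rose after quantile normalization. The 1 rise on each of these lists as deposited stands beside 0.424% of all genes. The 14 autophagy and 7 hypoxia genes stand beside 10.8% of all genes. Immediate early genes (21) and MAPK feedback genes (21) gave no call as deposited and 4 and 6 rises after quantile normalization, against 10.8% of all genes. SLC7A11 was also the 1 called gene of 15 NRF2 targets (2 without 12 h replicate 1 or 4). After quantile normalization 2 of these targets rose and 3 fell, beside 10.8% and 7.6% of all genes.

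The same time step at the lower dose, 3 ng, used a separate set of 8 arrays. There 803 genes fell (4.36%) and 13 rose (0.0706%), and after quantile normalization 1116 fell (6.06%) and 1827 rose (9.92%). Falls at 3 ng numbered 1321, 469, 1387 and 509 without 12 h replicates 1, 2, 3 and 4, and 491 without 24 h replicate 4. Rises there numbered 7 and 8 without 12 h replicates 1 and 3, and 5, 6 and 5 without 24 h replicates 1, 2 and 3. Of the 653 falls at 5 ng, 534 also fell at 3 ng, which is 81.8% of the falls at 5 ng and 66.5% of those at 3 ng. Of the 78 rises, 12 also rose at 3 ng, 15.4% of the rises at 5 ng and 92.3% of those at 3 ng. After quantile normalization the doses shared 892 falls (63.7% of those at 5 ng and 79.9% of those at 3 ng) and 1175 rises (59.2% and 64.3%). Across the 18417 genes, which are not independent, the changes at the doses correlated with r = 0.741 (0.751 after quantile normalization).

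Medians of the mitotic, kinetochore and replication lists lay lower at 5 ng than at 3 ng. The median of the mitotic list was -1.92 at 3 ng and -2.87 at 5 ng, that of the kinetochore list -1.81 and -2.55, and that of the replication list -1.23 and -1.50. For recombination and Fanconi genes it was -1.58 and -1.67, and for the histones it was higher at 5 ng, -1.56 and -1.47. The value was lower at 5 ng for 29 of 32 mitotic genes on both scales, and for 17 of 43 histone genes as deposited and 21 after quantile normalization. Over all 18417 genes it was lower at 5 ng for 4185 as deposited and for 9875 after quantile normalization, so the share over all genes depends on the scaling. KIF14 changed by -2.52 at 3 ng and -3.87 at 5 ng.

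Tested gene by gene, the difference of the time step between doses gave 0 calls on the deposited scale with limma, with 391 genes at an unadjusted p below 0.05. After quantile normalization 13 genes passed (0.0706%), and 12 of them had the larger fall at 5 ng: DEPDC1, CCNB1, SHCBP1, CCNA2, AURKA, HMMR, TPX2, TOP2A, PRC1, ANLN, RRM2 and CKS2. The difference was -1.53 for DEPDC1 and -1.38 for CCNB1 on the log2 scale (adjusted p = 0.003 for both). The thirteenth was APAF1, which fell by 1.10 at 3 ng as deposited (adjusted p = 0.00011). On the quantile scale its change was -0.87 at 3 ng and -0.26 at 5 ng, a difference of 0.60 (adjusted p = 0.039). Rises that looked larger at 5 ng, such as LINC00324 (1.68 against 0.27) and HSD17B3 (1.02 against -0.38), did not pass this test on either scale.

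**Figure D4:**
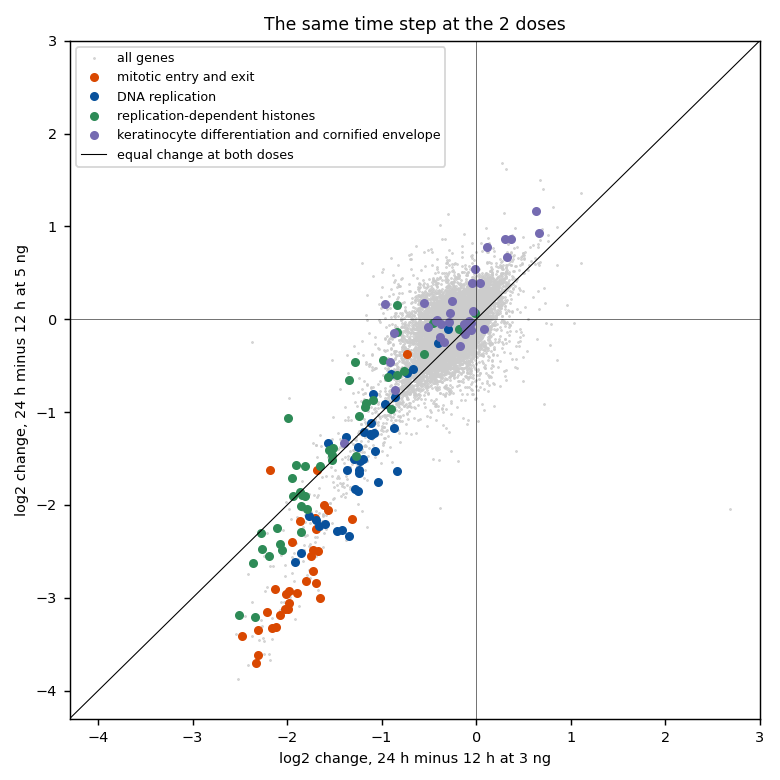
Log2 change from 12 h to 24 h at 5 ng (y axis) against the same step at 3 ng (x axis), deposited scale, with 1 point for each of 18417 genes and 4 lists coloured. The line marks equal change. Of all 18417 genes, 4185 lie below the line. Mitotic genes lie mostly below the line (29 of 32), and histone genes lie on both sides of it. The 5 called LCE genes lie above the line, but they were picked as rises at 5 ng. None of these 5 passed the test of the difference between doses.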

How the data were processed

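Total RNA was hybridised to 20 Affymetrix arrays. Per the labels' protocols, cells were given or not given doxycycline and collected at 12 h or 24 h. Per the submitters' processing notes, GCOS, GCRMA, Affymetrix Power Tools and limma were used, with no versions or roles. Neither the genome build nor any step that equalised the arrays is stated there. The authors deposited log2 signal values for 33297 transcript clusters, which were used as deposited. Of these, 19460 had 1 symbol in the platform table, 1754 several and 12083 none listed. The brightest single-symbol cluster stood for each of 18417 genes.

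limma 3.58.1 in R 4.3.3 fitted 5 group means over all 20 arrays (15 residual degrees of freedom, empirical Bayes, Benjamini-Hochberg over all genes, threshold 0.05), and was tested on simulated data. The comparison was 24 h against 12 h at 5 ng, beside the same step at 3 ng and their difference. The alternatives were quantile normalization, centring on array medians, a filter on dim genes, a mean of clusters, all clusters, other limma options, array weights, a replicate block and leaving out each array. Named genes are the 15 largest rises and falls called on both scales with separate groups, up to 5 called members per list, a panel of 28 genes, and called dose differences. Others were picked after their values were seen. Members and lists were chosen with earlier results of these data known. Arrays have no depth; their number limits the precision. Promoter letters were searched in RefSeq windows (GRCh38.p14). The same replicate numbers recur in each group, and whether they pair the arrays is not known. The main model did not pair arrays by them. Some named genes are not reported here.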

Additional observations from a re-analysis of the deposited data

Results flagged for a closer look

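In 12 of 174 pairs of a named gene and a group of 4 arrays at 5 ng, 1 array stood apart from the other 3 by more than Dixon's critical value for a group of that size. Chance alone would mark about 1 in 20 such pairs. Among genes that fell, the second 24 h array was high for CCNA2 (5.55 against 5.12 to 5.16 in the others) and for CCNB1 (7.90 against 7.39 to 7.43), and in both genes it stayed far below the 12 h arrays. The first 12 h array was low for UTP15 (7.95 against 8.28 to 8.34), UTP20 (7.07 against 7.36 to 7.40), TNC (7.55 against 7.92 to 7.96) and SESN1 (8.87 against 9.11 to 9.14). The second 12 h array was high for THBS1 (12.95 against 12.55 to 12.61) and low for LCE1C (10.62 against 10.78 to 10.79). The first 24 h array was low for EBP (8.14 against 8.39 to 8.43) and for BNIP3L (10.28 against 10.42 to 10.42). The fourth 24 h array was high for APAF1 (9.35 against 9.19 to 9.20) and for ID2 (5.30 against 4.91 to 4.97). The part of these arrays in the results was not tested beyond leaving each out.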

How the results depend on the processing

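Both the scaling and array weights moved the counts. Quantile normalization gave 1986 rises, 1400 falls and 16 rises of at least 2-fold at 5 ng, 1827 rises at 3 ng and 13 genes in the dose difference. Centring each array on its median gave 1164 rises and 20 of at least 2-fold at 5 ng, 652 rises at 3 ng and 1 gene in the dose difference. Array weights, whose estimation stopped before it converged, gave 754 rises, 6418 falls, 673 falls and 19 rises of at least 2-fold at 5 ng, 1537 rises and 1558 falls at 3 ng, and 2643 genes in the dose difference. The 13 rises at 3 ng became 20 with the replicate block, 5 with only the arrays compared, 23 with the dim filter and 25 with trend and robust options, the last of which gave 1 gene in the dose difference. The cause of these shifts was not tested. The other counts stayed within 1.5 times under each of these settings.

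Same-numbered 12 h and 24 h arrays at 5 ng had deviations from their group means correlated at -0.03, 0.50, 0.00 and 0.24. No values for differently numbered arrays are given beside these, so whether the numbers pair the arrays was not settled. With the number as a replicate block, 85 genes rose and 731 fell at 5 ng.

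Leaving out 1 array gave 32 to 59 rises and 471 to 766 falls at 5 ng, 7 to 11 rises and 354 to 449 falls of at least 2-fold, 5 to 15 rises and 469 to 1387 falls at 3 ng, and 0 genes in the dose difference. Of 68 called named genes, 55 kept call and direction under every alternative run. With all transcript clusters tested, HSD17B3, LCE1C, TCP11L2, UTP15, UTP20, FBL, FADS2, IL24 and THBS1 were no longer called. FBL, IL24 and THBS1 also lost the call after centring, and HSD17B3 and THBS1 with only the arrays compared. No called gene reversed. Signs that turned were of small, uncalled changes: after quantile normalization BAX 0.03, BBC3 0.12, GADD45A 0.06 and AKR1B10 0.11; after centring BAX 0.10, BBC3 0.10, PMAIP1 0.04, TNFRSF10B 0.04, GADD45A 0.16 and AKR1B10 0.13; with array weights FAS -0.01 and CASP6 -0.07. Without 1 array the ranges were MDM2 -0.01 to 0.07, FAS -0.04 to 0.05, CASP6 -0.11 to 0.11, GADD45A -0.07 to 0.05, AKR1B10 -0.15 to 0.06 and BBC3 -0.19 to 0.06.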

Other observations

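Small nucleolar RNAs, which guide chemical marks on ribosomal RNA, were on no list and were picked after their values were seen. Of 69 measured box C/D snoRNAs (SNORD names outside the SNORD113 to SNORD116 clusters), 22 fell and none rose between 12 h and 24 h at 5 ng, with a median of -0.65, beside 3.55% of all genes that fell, and 37 fell after quantile normalization, beside 7.6%. In those clusters 1 of 46 fell (median -0.27), so over all 115 box C/D snoRNAs 23 fell (median -0.50). Of 61 box H/ACA snoRNAs (SNORA names), 3 fell, with a median of -0.31, and 12 fell after quantile normalization. Those encoded in introns of the non-coding gene GAS5 moved together: of 7 measured, 6 fell, with a median of -1.13. SNORD74, for one, measured 8.82, 9.43, 9.32 and 9.11 at 12 h and 7.77, 8.16, 7.73 and 8.07 at 24 h, a 2.36-fold fall (adjusted p = 0.00029), and the groups did not overlap. At 3 ng 24 of the 69 fell, beside 4.36% of all genes. These RNAs share host transcripts and are not independent.

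A few genes that were high at 12 h were lower again at 24 h. They were picked by that pattern, and both steps share the 12 h arrays, so the values are a description. ELOVL2, a fatty acid elongase, stood 3.65 log2 units above uninduced cells at 12 h and changed by -1.09 after that, from 6.10, 6.81, 6.61 and 6.51 to 5.58, 5.52, 4.97 and 5.62. The cytokine IL36G stood 1.64 above and changed by -1.38, the endothelin precursor EDN1 0.91 and -0.74, and S100A3, a calcium-binding protein, 0.80 and -1.04.

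Some genes that rose outside the lists had not been called at 12 h against uninduced cells at 24 h. H2BC21, a histone H2B gene, measured 7.20, 7.02, 7.41 and 7.82 at 12 h and 8.30, 7.96, 8.08 and 8.20 at 24 h, a 1.71-fold rise (adjusted p = 0.016) without overlap, beside the 29 of 43 listed histone genes that fell. POLD4, the small subunit of DNA polymerase delta, rose 1.61-fold, from 8.72, 8.66, 8.70 and 8.85 to 9.38, 9.47, 9.39 and 9.45 (adjusted p = 0.0023), beside the 33 of 37 replication genes that fell. MXD4, a MYC antagonist, rose 1.49-fold (adjusted p = 0.011). These were picked after their values were seen.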
